A study of Mus musculus with 16 samples.

Results

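YTHDF2 RIP peaks off m6A are the peaks of YTHDF2 RNA immunoprecipitation (RIP) that lie in methylated genes but away from every m6A peak. A peak was a member where its gene ID stood in both m6A peak lists while its exonic blocks shared no base, on the same strand, with any block of either list. By that rule 11626 of the 23372 RIP peaks were members (49.7%). Another 8120 RIP peaks (34.7%) lay in genes of both m6A lists and shared at least 1 base with an m6A peak, and are called RIP peaks on m6A. The remaining 3626 (15.5%) lay in genes that were not in both lists. The rule read only the positions and gene IDs of the 3 lists, so members were chosen by measured values, the called positions of RIP and m6A peaks, and the sizes of these classes and their separation from m6A are descriptions.

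The cells were MC38, a mouse colon tumour line, in 2 genotypes that the labels call Ythdf2-KO and WT. The sample titles carry gY2 for the Ythdf2-KO libraries and gNC for the WT libraries, so WT cells may themselves have received a guide, and whether either line is 1 clone is not stated in the labels. Each genotype had 3 m6A immunoprecipitation libraries and 3 inputs, and 2 RIP libraries with 2 RIP inputs came from cells labelled WT. The authors deposited 1 peak list each for Ythdf2-KO m6A (17428 peaks in 8686 genes), WT m6A (19236 peaks in 9427 genes) and YTHDF2 RIP (6754 genes), and read counts per gene for the 6 m6A inputs. Both genotypes were grown in the same serum-containing medium, and no treatment or time is given.

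N6-methyladenosine, or m6A, is a methyl mark that a writer complex places on adenosines of messenger RNA, mostly at a short consensus around the bases GGAC followed by A, C or T. In most cell types the mark is dense near stop codons and in long internal exons, and sparse in short internal exons close to splice junctions. YTHDF2 is a cytoplasmic reader whose YTH domain holds the methylated base, and it brings the CCR4-NOT deadenylase to the transcript, after which the transcript is degraded. A RIP peak away from m6A is therefore a place where the pulldown of the reader was enriched without a called mark. Per the labels' protocols, messenger RNA was broken into short pieces before the m6A pulldown. For RIP the protocol text used here describes lysate put on antibody beads and no breaking of RNA before the pulldown, and how much of a peak's position this sets was not tested.

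The 3 pairs of stretches printed next set a coding off-m6A RIP peak beside the WT m6A peak of the same transcript. Setd5 (encoding a SET-domain chromatin regulator) and Epb41l1 (encoding a protein that links membrane and cytoskeleton) had 2 of the 8 lowest scores among members. Cx3cl1 encodes the chemokine fractalkine. Each sequence is sense RNA written as DNA, 5′ to 3′, at most 120 bases around the middle of the peak and within 1 exon, with the consensus pentamer (GGAC, then A, C or T) in capitals. Positions are on mm10, and the bases are those of GENCODE M21 transcripts on the same assembly.
Setd5 off-m6A RIP peak, chr6:113138061-113138180, plus strand: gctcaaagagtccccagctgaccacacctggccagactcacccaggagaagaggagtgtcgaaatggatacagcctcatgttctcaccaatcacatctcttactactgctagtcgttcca
Setd5 WT m6A peak, chr6:113143791-113143910, plus strand: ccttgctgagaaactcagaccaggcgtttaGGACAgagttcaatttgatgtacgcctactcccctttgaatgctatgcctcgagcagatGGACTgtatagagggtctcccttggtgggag
Epb41l1 off-m6A RIP peak, chr2:156494957-156495065, plus strand: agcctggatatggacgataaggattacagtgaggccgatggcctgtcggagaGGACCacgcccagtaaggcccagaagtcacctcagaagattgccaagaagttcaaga
Epb41l1 WT m6A peak, chr2:156510755-156510874, plus strand: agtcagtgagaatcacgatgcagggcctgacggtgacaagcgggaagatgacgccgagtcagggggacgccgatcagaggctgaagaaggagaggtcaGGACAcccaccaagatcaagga
Cx3cl1 off-m6A RIP peak, chr8:94780043-94780162, plus strand: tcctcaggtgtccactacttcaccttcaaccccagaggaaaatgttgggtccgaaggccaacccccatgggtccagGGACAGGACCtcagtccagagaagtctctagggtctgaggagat
Cx3cl1 WT m6A peak, chr8:94779713-94779832, plus strand: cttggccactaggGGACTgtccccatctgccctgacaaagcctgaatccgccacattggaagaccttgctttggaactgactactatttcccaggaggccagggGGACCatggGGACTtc

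The printed stretch of the Setd5 off-m6A peak held 0 consensus pentamers, against 2 in that of its m6A peak. Epb41l1 had 1 in each. In Cx3cl1 the off-m6A stretch held 2 and the m6A stretch 3. The Cx3cl1 RIP peak (chr8:94779968-94780238, 271 bases) started 29 transcript bases beyond the end of the m6A peak (chr8:94779608-94779938, 331 bases), so it counted as off m6A although both lay in the same coding exon. A second Cx3cl1 member (chr8:94781257-94781317, 61 bases) lay in the 3′ UTR, 1318 bases from the m6A peak, and held 0 pentamers. The gene also had 1 RIP peak on m6A.

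The Setd5 member (chr6:113130341-113138331, 421 exonic bases in 2 blocks) is a case at the edge of the rule. Along the transcript it was 0 bases from a block of an m6A peak that began across a splice junction, with 119 bases to the WT peak shown above. Near the threshold, 2 members lay within 10 genome bases of an m6A block and 762 (6.55%) within 100, and 81 abutted one along the transcript. On the other side, 283 RIP peaks on m6A shared only 1 to 10 bases with one, and 626 (7.71%) shared under 50, against a median of 210 shared bases.

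The stretches printed next come from members far from any m6A peak, from genes with many members and, for Huwe1, from a member with one of the lowest scores. Hspg2 encodes the matrix proteoglycan perlecan, Lrp1 a large endocytic receptor, Mdn1 an ATPase of ribosome assembly and Huwe1 a ubiquitin ligase. Ago2 encodes the Argonaute that carries microRNAs, Cdk6 a cell cycle kinase and Zbtb37 a zinc finger protein. Stretches in 3′ UTRs are the middle 30 bases of the peak.
Hspg2 off-m6A RIP peak, coding, chr4:137510542-137510653, plus strand: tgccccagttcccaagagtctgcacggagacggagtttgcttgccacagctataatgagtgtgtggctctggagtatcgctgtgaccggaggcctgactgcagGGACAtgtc
Lrp1 off-m6A RIP peak, coding, chr10:127538950-127539030, minus strand: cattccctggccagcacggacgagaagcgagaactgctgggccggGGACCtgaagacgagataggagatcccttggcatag
Mdn1 off-m6A RIP peak, coding, chr4:32662989-32663049, plus strand: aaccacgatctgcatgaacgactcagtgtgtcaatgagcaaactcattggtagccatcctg
Huwe1 off-m6A RIP peak, coding, chrX:151864568-151864687, plus strand: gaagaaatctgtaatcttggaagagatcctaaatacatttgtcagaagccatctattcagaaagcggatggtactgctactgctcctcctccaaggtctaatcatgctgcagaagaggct
Ago2 off-m6A RIP peak, 3′ UTR, chr15:73095994-73096023, minus strand: agtgttttcttttcacctccttatgtagcc
Cdk6 off-m6A RIP peak, 3′ UTR, chr5:3530723-3530752, plus strand: cattctatgtcacagggcaggagaggagac
Zbtb37 off-m6A RIP peak, 3′ UTR, chr1:161011340-161011369, minus strand: tggtttgacttttcttattttacaaaatca

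Of these 7, the Hspg2 and Lrp1 stretches each held 1 pentamer and the other 5 held 0. The Hspg2 member (chr4:137508307-137511040, 421 exonic bases) lay 12202 transcript bases upstream of the m6A peak of its gene, farther than any other member of a named gene. The 8 farthest members of named genes were 9195 to 12202 bases from m6A. In 4 of them (Hspg2, Lrp1, Trrap and Mdn1) the member was coding, and in the other 4 (Cdk6, Lnpep, Ago2 and Pou2f1) it lay in the 3′ UTR downstream of all m6A. Trrap encodes a scaffold of histone acetyltransferase complexes, Lnpep an aminopeptidase and Pou2f1 a POU-domain transcription factor. All 8 genes have transcripts over 10000 bases long, from 11525 bases in Cdk6 to 17970 bases in Mdn1.

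Members were common in methylated genes. Of 8306 genes in both m6A lists, 5207 had a RIP peak, and 3976 hosted at least 1 member. Members made up 58.9% of the 19746 RIP peaks in those genes (exact Clopper-Pearson 95% interval 58.2 to 59.6, here and throughout for counting error only). Peaks of 1 gene share a transcript, so such intervals are narrower than peaks from separate genes would give. Most members (84.2%) sat in the 3090 genes that also had a RIP peak on m6A, and 886 genes had members only. In addition, 1231 genes had RIP peaks on m6A only and 3099 had no RIP peak. Of the host genes, 97.9% are annotated as protein-coding.

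A host gene had a median of 2 members. In 1380 genes there was 1, in 749 genes 5 or more, and in 91 genes 10 or more. Zbtb37 had the most, with 30 members that were all placed in its 3′ UTR. Zbtb20, a zinc finger repressor, had 21 members, 19 of them in the 3′ UTR and 2 coding. Ago2 had 18 (13 in the 3′ UTR, 5 coding). Flna, encoding the actin cross-linker filamin A, also had 18, of which 17 were coding, and it had 0 RIP peaks on m6A although 1 m6A peak stood in each list. Members of Fbn1 (16), encoding the microfibril protein fibrillin-1, and of Vps13c (15), encoding a lipid transfer protein, were all coding. In Zfyve26 14 of 16 members were coding, in Nav2 13 of 16 and in Mdn1 13 of 14. Genes with many members thus divided into those with a row of 3′ UTR peaks and those with a row of coding peaks.

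The host transcripts were long. The coding transcript used for each gene had a median length of 4288 bases in genes with RIP peaks both off and on m6A, 3483.5 in genes with members only, 2830.5 in genes with RIP peaks on m6A only, and 2302 in methylated genes without a RIP peak. Members covered a median of 11.1% of the host transcript. Genes with members only had a mean of 1.61 m6A peaks in the Ythdf2-KO list and 1.70 in the WT list, against 2.30 and 2.39 in genes with RIP peaks on m6A only. A longer transcript offers more room for a peak off m6A, and how much of the hosting this sets was not tested.

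Off-m6A peaks were narrower than RIP peaks on m6A. The median exonic width was 210 bases (quartiles 121 and 360) for members and 391 bases (181 and 1019) for RIP peaks on m6A. All members together covered 3560 kb of exon and all RIP peaks on m6A 7174 kb. A wider peak has more bases with which to touch m6A, so width is not independent of the rule. Members lay in 1 exonic block in 61.3% of cases, against 54.4% of RIP peaks on m6A. The authors' deposited score, read here as a p-value from its range, had a median of 1.3e-07 over members and 2.5e-12 over RIP peaks on m6A. Among peaks of 150 to 300 bases the medians were 1.9e-07 and 7.4e-08, and among peaks of 600 to 1200 bases 1.6e-17 and 1.3e-18. At the stricter score of 1e-05, 72.8% of members remained, as did 87.7% of RIP peaks on m6A.

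The lowest member scores belonged to wide peaks. Anxa4, encoding a calcium-dependent membrane-binding annexin, had the lowest, in a peak of 1379 exonic bases, followed by Setd5, Dst (a cytoskeletal linker), Asah1 (acid ceramidase), Epb41l1, Huwe1, Birc6 (an inhibitor of apoptosis) and Tnfrsf1a (a receptor of tumour necrosis factor). In 7 of these 8 the peak centre was coding, and in Anxa4 it was in the 3′ UTR. The Birc6 member spanned 2308 exonic bases in 11 blocks and held 6 pentamers, and the Asah1 member spanned 2040 bases in 8 blocks and held 5.

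On the transcript, the share of members near the stop codon, where m6A peaks are dense, was low. The centre of 9946 members (85.5%) could be placed on the transcript chosen for its gene, the one with the longest coding sequence. Of these, 54.9% were coding (53.9 to 55.9), 42.4% were in the 3′ UTR (41.4 to 43.4) and 2.68% in the 5′ UTR, against 61.5%, 36.1% and 2.41% of RIP peaks on m6A. Within 200 bases of the stop codon lay 4.78% of member centres (4.36 to 5.21), 18.8% of RIP peaks on m6A, 25.6% of Ythdf2-KO m6A peaks and 25.8% of WT m6A peaks. Keeping clear of m6A takes members away from the stop codon by construction, so the plain comparison is with single bases spread evenly over the parts of the same transcripts outside m6A peaks. Such an even spread gave 50.7% coding, 42.8% 3′ UTR, 6.50% 5′ UTR and 5.91% near the stop codon. The coding share of members was thus above, and their 5′ UTR share below, that of the unmarked bases. The even spread is a computed value without a test, and it takes no account of peak width.

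**Figure D1:**
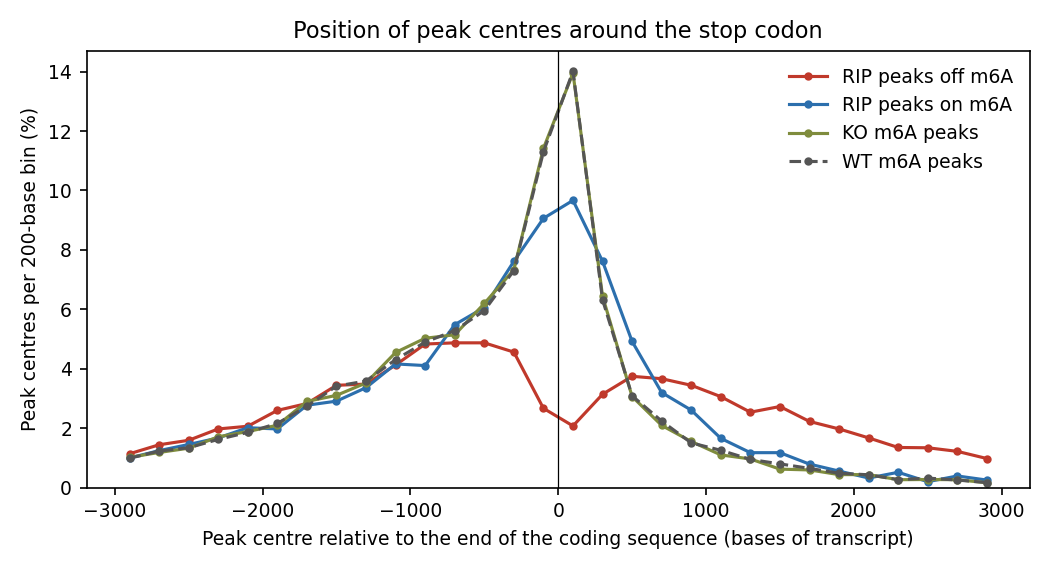
Share of placed peak centres (%, vertical axis) in 200-base bins by distance from the end of the coding sequence (horizontal axis, transcript bases) for off-m6A RIP peaks, RIP peaks on m6A, Ythdf2-KO m6A peaks and WT m6A peaks. The m6A lists and the RIP peaks on m6A peak at 0, while the off-m6A RIP peaks dip there, with 4.78% of centres within 200 bases of the stop codon.

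Distances to m6A were measured along the transcript for 9847 members. The median gap from a member to the nearest m6A peak of its gene was 627 bases (quartiles 240 and 1353). Of these members 11.3% lay within 100 bases, 43.4% within 500 and 65.4% within 1000, and 14.3% lay more than 2000 bases away. Upstream of all m6A peaks of the gene were 31.3% of members, between m6A peaks 27.1% and downstream of all of them 41.6%. Evenly spread unmarked bases gave 31.6%, 28.7% and 39.8%. Upstream members were mostly coding (89.8%), at a median gap of 672.5 bases, and downstream members mostly in the 3′ UTR (84.4%), at a median gap of 927 bases. Members between m6A peaks had a median gap of 299 bases. Measured from its centre, a member was a median of 780 bases from m6A, and an evenly spread unmarked base 671. By the rule the whole width of a member lies outside m6A, which moves its centre outward by construction. A single base has no such limit, so these medians are not like for like.

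**Figure D2:**
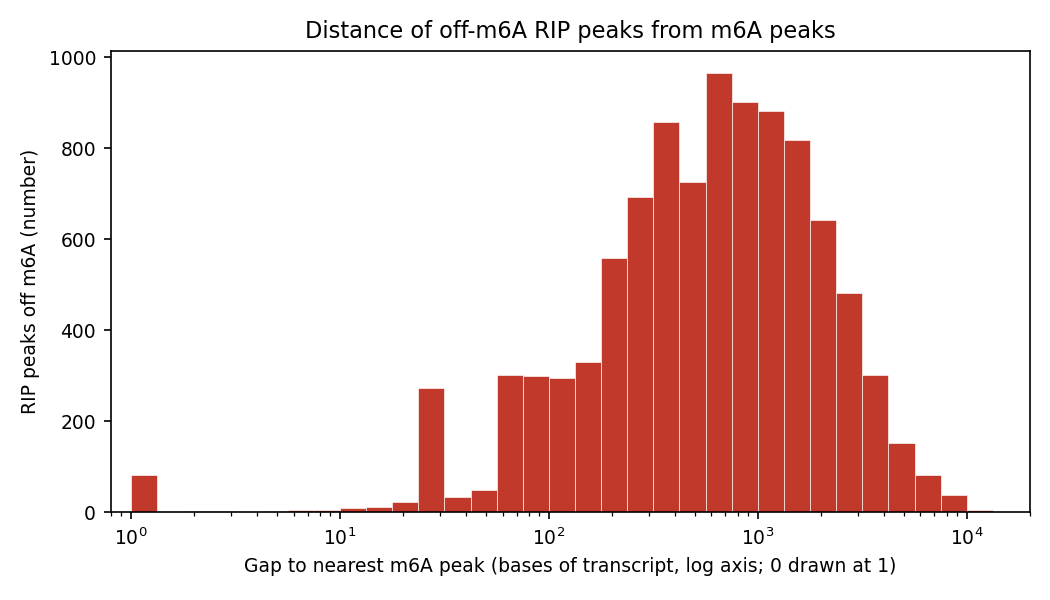
Number of off-m6A RIP peaks (vertical axis) by the gap to the nearest m6A peak of the same gene (transcript bases, log axis, gaps of 0 drawn at 1) for the 9847 members with a distance. Most gaps lie between 100 and 2000 bases, around the median of 627, and a separate bar of 274 peaks stands at gaps of 23.7 to 31.6 bases. Widths of named single-block members come in steps, such as 61, 211, 271 and 301 bases, and what such steps add to the bar was not tested.

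Coding members lay in shorter exons than coding m6A peaks, a contrast that the rule itself favours. The exon under a coding member centre had a median length of 159 bases, against 724 under RIP peaks on m6A, 568 under Ythdf2-KO m6A peaks and 574 under WT m6A peaks. Exons over 400 bases held 15.2% of coding members (14.2 to 16.2), 61.0% of coding RIP peaks on m6A, 55.8% of Ythdf2-KO m6A peaks and 55.9% of WT m6A peaks. Internal exons held 90.4% of coding members and last exons 6.66%, against 66.2% and 30.5% of coding RIP peaks on m6A. Within 100 bases of an exon junction lay 86.6% of coding members (85.7 to 87.5), against 47.1% of RIP peaks on m6A and 46.9% in each m6A list. Keeping clear of m6A takes members away from exons that m6A peaks fill by construction, so the plain comparison is with unmarked coding bases. Unmarked coding bases spread evenly over the same transcripts gave 22.0% in exons over 400 bases, 86.2% in internal exons, 8.98% in last exons and 81.7% within 100 bases of a junction. The share of coding members in long exons was thus below that of unmarked coding sequence, and their share near junctions above it, by a few percentage points and with no test.

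Consensus pentamers were about as frequent in coding and 3′ UTR members as in unpeaked sequence of the same transcripts. The letters GGAC followed by A, C or T were searched on the sense strand in the central 100 bases of each peak. At least 1 stood in 26.9% of 7910 member windows (26.0 to 27.9), 32.3% of RIP peaks on m6A, 41.3% of Ythdf2-KO m6A peaks, 40.5% of WT m6A peaks and 26.9% of 71339 unpeaked windows. In the 3′ UTR the shares were 18.9% (17.6 to 20.3) in members, 28.7% in RIP peaks on m6A, 45.2% in Ythdf2-KO m6A peaks, 44.0% in WT m6A peaks and 20.4% in unpeaked windows. In coding sequence they were 32.7%, 34.1%, 39.3%, 38.7% and 33.3% in the same order. In the 5′ UTR, with 187 member windows, the share was 36.9% in members (29.97 to 44.2), 39.0% in RIP peaks on m6A, 45.7% in Ythdf2-KO m6A peaks, 42.2% in WT m6A peaks and 29.98% in unpeaked windows (28.8 to 31.1). The same pentamers read backwards (A, C or T followed by CAGG) were a control with the same base composition. They stood in 33.8% of member windows, 37.3% of RIP peaks on m6A and 34.6% of unpeaked windows. Ythdf2-KO and WT m6A peaks had 37.9% and 37.5%. In the 3′ UTR the reversed letters stood in 29.8% of members, 34.99% of RIP peaks on m6A and 32.8% of unpeaked windows. There the Ythdf2-KO and WT m6A peaks had 38.2% and 36.99%. The reversed letters were thus also less frequent in members than in RIP peaks on m6A. How much of the consensus contrast they share was not tested. Over whole peaks the density of consensus pentamers in members was 0.854 times that in RIP peaks on m6A. A match is a description of the letters and not a methylated site.

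**Figure D3:**
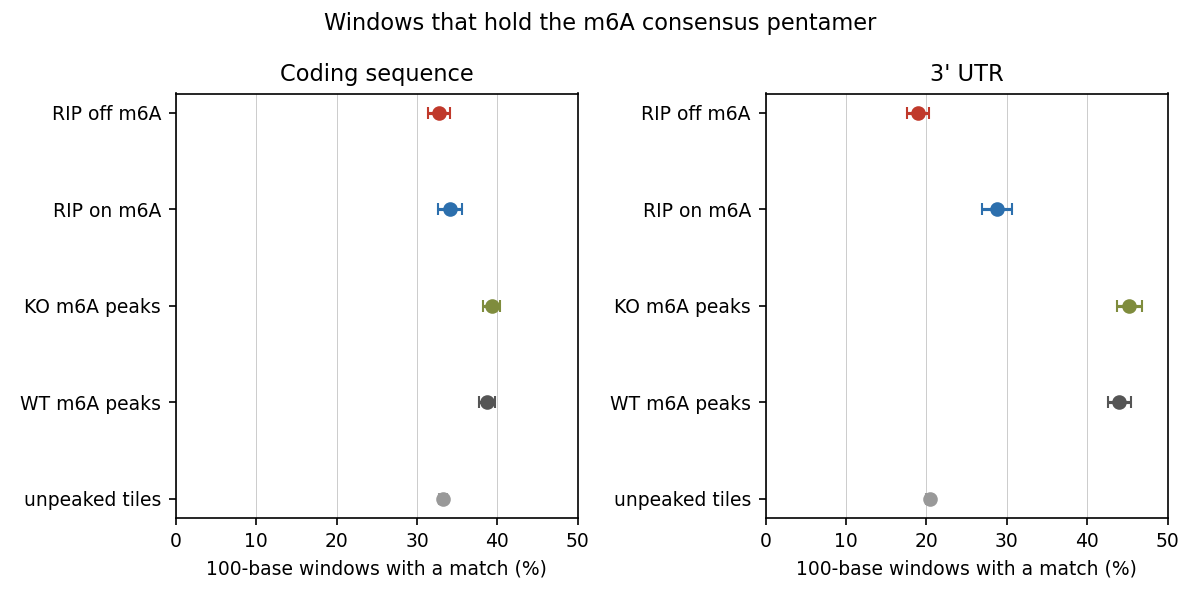
Share of 100-base windows (%) with at least 1 of the 3 consensus pentamers in coding sequence (left) and 3′ UTR (right); points are shares and bars exact 95% intervals for counting error. In the 3′ UTR the members at 18.9% sit beside the unpeaked windows at 20.4% and below all other peak sets.

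Members in the 3′ UTR were richer in A and T. Their G+C content was 41.1%, against 43.9% in RIP peaks on m6A and 43.5% in unpeaked 3′ UTR windows. The pentamer ATTTA, the core of AU-rich elements, stood in 19.5% of member windows (18.2 to 20.9), 14.2% of RIP peaks on m6A and 14.9% of unpeaked windows. Per kilobase it occurred 2.39 times in members and 1.77 times in unpeaked windows, while the 9 other orders of 2 A and 3 T occurred 18.6 and 14.5 times. The other A and T pentamers were thus higher in members as well. The Pumilio element TGTANATA, with N any base, stood in 3.34% of member windows (2.75 to 4.01), 2.31% of RIP peaks on m6A and 2.29% of unpeaked windows (2.13 to 2.45). Its reversed letters ATANATGT stood in 1.38% of member windows and 1.56% of unpeaked windows. AU-rich and Pumilio elements are both known as binding sites of proteins that shorten poly(A) tails, and no binding was measured here.

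Some members shared bases with an exon of another gene. An exon of another gene on the opposite strand shared a base with 5.07% of members and 8.31% of RIP peaks on m6A, and one on the same strand with 2.00% and 3.60%. Exons of snoRNA or microRNA genes on the same strand touched 23 members and 17 RIP peaks on m6A. The part of such genes in the peaks was not tested.

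Members were then read by gene list. Among all genes in both m6A lists, 47.9% hosted a member. Long scaffold, cytoskeleton and adhesion genes hosted members in 29 of 35 methylated genes, 196 members in all. Chromatin remodellers and acetyltransferases did so in 31 of 37 (129 members), histone methyltransferases and demethylases in 27 of 35 (108), and collagens, laminins, integrins and other matrix genes in 18 of 22 (69). At the other end, cytosolic ribosomal protein genes hosted a member in 1 of 25 (Rpl13) and translation factors in 7 of 32. Median transcript lengths were 11808 bases for the scaffold genes, 7699 for the remodellers, 6527 for the histone enzymes, 5621.5 for the matrix genes, 2548 for translation factors, 1047 for ribosomal proteins and 3202 for all genes in both m6A lists. The part of length in these shares was not tested. Rpl13 overlaps snoRNA and microRNA genes on the same strand, so its member is uncertain.

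Genes of the m6A and decay machinery hosted members themselves. Of 14 methylated m6A writers, erasers and readers, 5 did, with 20 members. Alkbh5, the m6A demethylase, had 6, all in its 3′ UTR, and 0 RIP peaks on m6A beside 3 m6A peaks in each list. Rbm15, an adaptor of the writer complex, also had 6. Ythdf2 itself had 0 members and 1 RIP peak on m6A. Of 29 methylated genes of CCR4-NOT, decapping and mRNA decay, 17 hosted 86 members, led by Ago2 with 18 and Tnrc6b, a partner of Argonaute in silencing, with 13 (9 coding, 4 in the 3′ UTR). NF-kB, interferon and chemokine genes hosted members in 17 of 28 (61 members), with most in Traf3 (9), and endoplasmic reticulum chaperone and folding genes in 11 of 23 (39), with most in Ern1 and Uggt1 (9 each).

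The input counts then showed how the host genes compared between Ythdf2-KO and WT cells. Total counts ran from 48736352 to 50959555 in the Ythdf2-KO libraries and from 45441281 to 50885512 in the WT libraries. Ythdf2 did not pass the test in whole-gene counts (67.9, 59.8 and 61.5 CPM, counts scaled to TMM library size, in Ythdf2-KO and 55.6, 68.6 and 59.7 CPM in WT; log2 fold change 0.04, edgeR adjusted p = 0.809). A whole-gene count cannot see a small edit, so genotypes rest on the labels, and libraries labelled Ythdf2-KO are meant wherever Ythdf2-KO is written. On principal component 1, Ythdf2-KO replicate 1 lay apart from its group and toward WT (-10.4, against 64.1 and 63.2 for the other two and -39.2 to -38.6 for WT). Of the epithelial markers, Epcam, Krt18 and Cldn7 had 0 counts in all 6 libraries, and Cdh1, Krt8, Krt19 and Cldn4 were at most 0.264 CPM (markers are given here without TMM scaling). Of the intestinal markers, Vil1 was at 0.157 to 0.452 CPM, and Cdx1, Cdx2 and Lgr5 were at most 0.151 CPM. The defining markers of the labelled colon epithelium were thus at or near 0. The fibroblast markers averaged 165 CPM in Ythdf2-KO and 145 CPM in WT for Pdgfra, 32.6 and 59.2 CPM for Dcn, 14.7 and 28.4 CPM for Col1a1, and 1.10 and 3.64 CPM for Lum, in the same order. Of these 4, Dcn passed the test and was lower (edgeR adjusted p = 0.0355). The cells are bulk samples, in which fewer cells of a type and less RNA per cell cannot be told apart.

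More host genes were called higher than lower in Ythdf2-KO cells, as among methylated genes in general. Of 3976 host genes, 3961 passed the filter on low counts, and at an edgeR adjusted p below 0.05 223 of them were higher and 46 lower, 6.79% of those tested. The background over all 18969 genes tested was 4.54%, with 2.99% higher (568) and 1.54% lower (293). Over the 8171 tested genes in both m6A lists it was 6.27%, with 403 higher and 109 lower, so the hosts' share was near that of methylated genes in general. The median log2 fold change was 0.11 over hosts, 0.08 over genes in both m6A lists and -0.01 over all genes tested. Values of the Ythdf2-KO and WT libraries did not overlap for 40.0% of hosts, against 38.2% of genes in both m6A lists and a background of 33.8% over all genes. The calls depended on single libraries. Without Ythdf2-KO replicate 1 edgeR called 1954 hosts, against a background of 35.4% over all genes, and without WT replicate 1 27 hosts, against 0.476%. Without Ythdf2-KO replicate 2 or 3, or WT replicate 2 or 3, it called 0 hosts, with 946 to 1089 at an unadjusted p below 0.05, and the backgrounds were 0.0204%, 0.00509%, 0.0% and 0.0257% in that order. DESeq2 on all 6 libraries called 1127 hosts at a background of 23.0%. With the replicate number as a block edgeR called 28 hosts (background 0.374%), and without a filter on low counts 36 (0.317%).

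Split by binding, the 4 classes of methylated genes had median log2 fold changes from 0.04 to 0.12. Genes with members only had a median log2 fold change of 0.08 and 46 higher and 12 lower calls among 882 tested. Genes with RIP peaks both off and on m6A had 0.12, with 177 higher and 34 lower among 3079. Genes with RIP peaks on m6A only had 0.07, with 65 higher and 17 lower among 1178, and methylated genes without a RIP peak 0.04, with 115 higher and 46 lower among 3032. Leaving out any library moved the median of genes with members only between 0.06 and 0.10 and that of genes without a RIP peak between 0.01 and 0.06. Hosts with a member at least 500 bases from m6A had a median of 0.13 (143 higher, 20 lower, 2376 tested). Hosts with 5 or more members also had 0.13 (41 higher, 6 lower, 748 tested). Of the 91 hosts with 10 or more, 3 were higher and 0 lower. Called in either direction were 6.86%, 6.28% and 3.30% of these host sets in turn. The shares of the 4 classes were 6.58%, 6.85%, 6.96% and 5.31%, in the order given above. The backgrounds were 4.54% over all genes tested and 6.27% over genes in both m6A lists. Whether the classes differ was not tested.

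The classes were also compared within bands of expression. At 1 to 10 CPM in WT, the median log2 fold change was 0.11 in genes with members only (6 higher, 1 lower, 80 tested), 0.23 in genes with RIP peaks off and on m6A (16 higher, 0 lower, 218 tested), 0.05 in genes with RIP peaks on m6A only (4 higher, 3 lower, 151 tested) and 0.01 in genes without a RIP peak (13 higher, 9 lower, 389 tested). Among genes at 10 to 30 CPM in WT, the median log2 fold change was 0.18 in genes with members only (15 higher, 0 lower, 211 tested) and 0.16 in genes with RIP peaks off and on m6A (59 higher, 11 lower, 830 tested). It was 0.04 in genes with RIP peaks on m6A only (17 higher, 7 lower, 369 tested) and 0.03 in genes without a RIP peak (27 higher, 7 lower, 558 tested). At 30 to 100 CPM it was 0.06 in genes with members only (17 higher, 9 lower, 399 tested), below the 0.09 of genes with RIP peaks on m6A only (33 higher, 5 lower, 462 tested). In that band genes with RIP peaks off and on m6A had 0.11 (88 higher, 14 lower, 1497 tested) and genes without a RIP peak 0.06 (52 higher, 16 lower, 1187 tested). Above 100 CPM the median was 0.04 in genes with members only (8 higher, 2 lower, 188 tested). It was 0.05 in genes with RIP peaks off and on m6A (14 higher, 9 lower, 523 tested). Genes with RIP peaks on m6A only had 0.04 (11 higher, 1 lower, 174 tested) and genes without a RIP peak 0.03 (23 higher, 14 lower, 840 tested). Called in either direction were 8.75%, 7.34%, 4.64% and 5.66% at 1 to 10 CPM (members only, off and on, on only, no RIP peak). At 10 to 30 CPM the shares were 7.11%, 8.43%, 6.50% and 6.09%, and at 30 to 100 CPM 6.52%, 6.81%, 8.23% and 5.73%. Above 100 CPM they were 5.32%, 4.40%, 6.90% and 4.40%. Without bands the backgrounds were 4.54% of all genes tested and 6.27% of those in both m6A lists, with none computed within bands. WT level defined these bands, so chance lows in WT enter them, and whether they do so equally in the 4 classes was not tested.

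**Figure D4:**
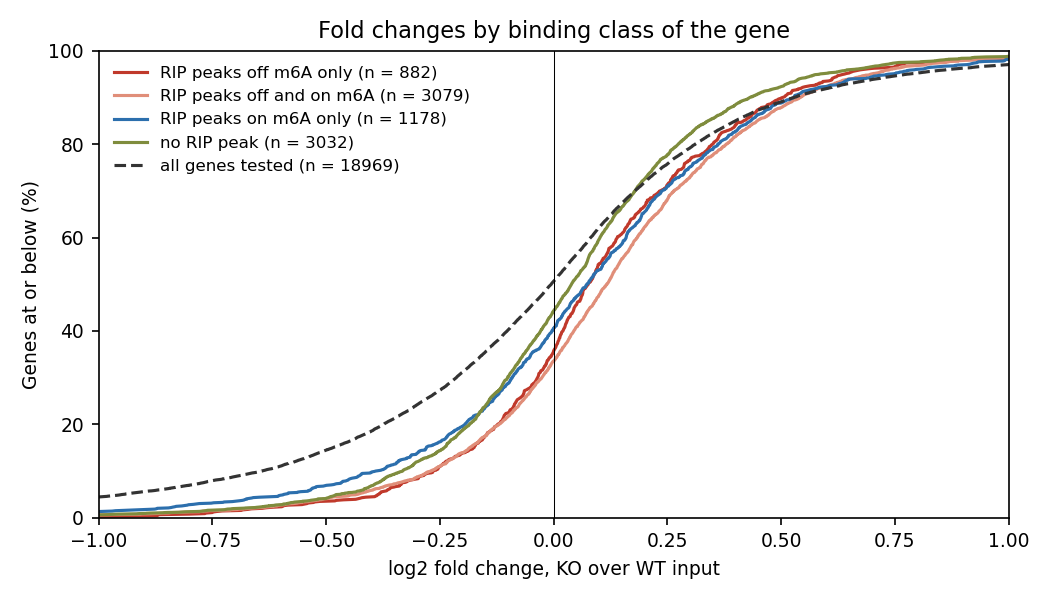
Cumulative share of tested genes (%) by log2 fold change of Ythdf2-KO over WT input for the 4 binding classes of genes in both m6A lists and for all genes tested. The 4 classes have medians from 0.04 to 0.12, to the right of all genes at -0.01.

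Among called hosts, the 8 largest rises and 8 largest falls with separated groups were read in each library. Calcrl, a receptor of adrenomedullin and related peptides, had 20.8, 44.7 and 42.9 CPM in Ythdf2-KO and 8.95, 7.47 and 6.85 CPM in WT (log2 fold change 2.22, SE 0.29, edgeR adjusted p = 0.0227). It had 1 coding and 1 3′ UTR member. Slc7a11, the cystine importer that feeds glutathione synthesis, had 37.8, 94.99 and 94.3 CPM in Ythdf2-KO and 26.9, 21.9 and 20.2 CPM in WT (log2 fold change 1.72, SE 0.34, adjusted p = 0.0401), and its 3 members were all in the 3′ UTR with 0 RIP peaks on m6A. Prkar2b, a regulatory subunit of protein kinase A, had 4 members in the 3′ UTR and 0 RIP peaks on m6A. It measured 89.3, 152 and 150 CPM in Ythdf2-KO, against 49.1, 50.0 and 44.8 CPM in WT (log2 fold change 1.44, SE 0.20, edgeR adjusted p = 0.0227). In all 3 genes the groups did not overlap and Ythdf2-KO replicate 1 was the lowest of its group.

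Cx3cl1, with the sequences shown above, had 12.6, 22.8 and 23.2 CPM in Ythdf2-KO and 8.04, 6.69 and 6.38 CPM in WT (log2 fold change 1.47, SE 0.25, edgeR adjusted p = 0.0336). Replicate 1 was again the lowest of the Ythdf2-KO libraries, and the groups did not overlap. The other rises were Gdf15, a stress-induced cytokine (log2 fold change 1.89), Sipa1l2, a Rap GTPase regulator (1.77), Prrg4, a membrane protein (1.69), and Itpk1, an inositol phosphate kinase (1.59).

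Among the falls, Plcb4, a phospholipase C, had 2 members in its 3′ UTR. It measured 14.4, 8.31 and 7.43 CPM in Ythdf2-KO and 40.6, 30.5 and 29.6 CPM in WT (log2 fold change -1.74, SE 0.27, edgeR adjusted p = 0.0293). Pde4b, a phosphodiesterase of cyclic AMP, had 1 coding member and measured 5.69, 5.89 and 5.30 CPM in Ythdf2-KO and 12.9, 15.3 and 15.5 CPM in WT (log2 fold change -1.37, SE 0.13, adjusted p = 0.0126). Thbs1, encoding the matrix glycoprotein thrombospondin-1, had 2 coding members and 1 in the 5′ UTR. Its levels were 67.2, 46.9 and 49.4 CPM in Ythdf2-KO and 123, 137 and 147 CPM in WT (log2 fold change -1.32, SE 0.15, adjusted p = 0.0180). These 3 genes were lower in every Ythdf2-KO library than in any WT library. The other falls were Sp110, a nuclear body protein (log2 fold change -1.57), Tmem140 (-1.51), Abca8b, an ABC transporter (-1.31), Nlrp4e (-1.26) and Ugt1a7c (-1.24). Ugt1a7c shares exons with other genes of its locus on the same strand, so its reads are uncertain. Slc7a11, Prkar2b, Itpk1, Abca8b and Nlrp4e had RIP peaks off m6A only.

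**Figure D5:**
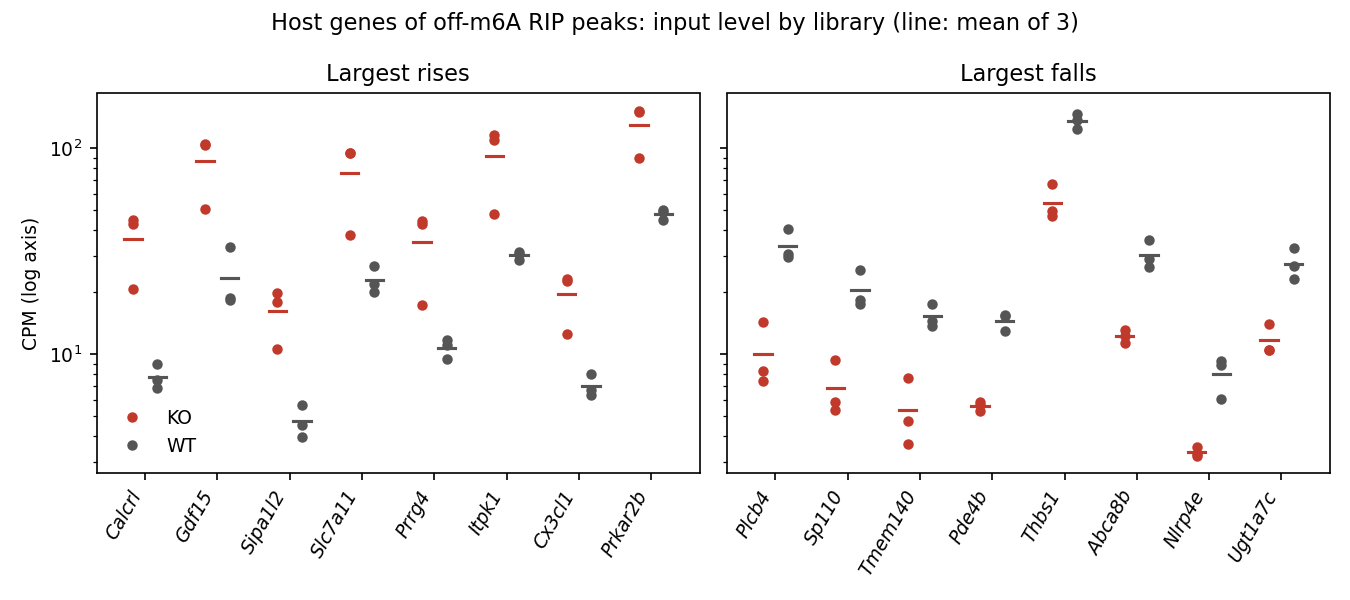
Input level (CPM, log axis) of the 16 called host genes with the largest rises (left) and falls (right); each dot is a library, Ythdf2-KO (KO) left of WT, and lines are means of 3. In the rises the lowest Ythdf2-KO dot, replicate 1, stays above every WT dot, as for Calcrl at 20.8 against at most 8.95 CPM.

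In the gene lists the calls among hosts were small counts, with backgrounds of 4.54% of all genes tested and 6.27% of those in both m6A lists. The called share was above both backgrounds among endoplasmic reticulum, matrix and NF-kB hosts, on at most 3 calls a list. In the other lists it was below both. Whether any list differs from the backgrounds was not tested. Of 11 endoplasmic reticulum chaperone and folding hosts, 1 was higher and 0 lower, and of all 25 genes of that list 6 were higher and 0 lower. This was Hspa5, the chaperone BiP (1792, 2022 and 2045 CPM in Ythdf2-KO, 1028, 983 and 978 CPM in WT; log2 fold change 0.97, SE 0.07, edgeR adjusted p = 0.00822). Of 18 matrix and integrin hosts, 2 were higher, Itga6 (1.10) and Itga5 (0.75), which encode laminin- and fibronectin-binding integrin chains, and 1 was lower, Thbs1, while of the 33 genes of the list tested 3 were higher and 1 lower. Of 17 NF-kB, interferon and chemokine hosts, 3 were higher and 0 lower, Cx3cl1, Il6st, the shared receptor chain gp130 (0.70), and Ifnar1, a chain of the type I interferon receptor (0.44). Over that whole list, 3 of 39 tested genes were higher and 1 lower. Of 31 chromatin remodeller hosts, 1 was higher, the helicase Chd7 (1.13), which had 13 coding members. In the other 6 lists 0 hosts were called, among 86 tested. Among genes of these lists that hosted no member, 1 scaffold gene was higher and 1 translation factor lower. The Alkbh5 values were 122, 233 and 226 CPM in Ythdf2-KO and 139, 164 and 150 CPM in WT, which overlap (log2 fold change 0.36, edgeR adjusted p = 0.326). Flna had 531, 563 and 582 CPM in Ythdf2-KO and 474, 529 and 519 CPM in WT (log2 fold change 0.14, edgeR adjusted p = 0.249). Of the 12 genes with most members, 0 were called, and their log2 fold changes ran from -0.28 (Mdn1) to 0.43 (Fbn1).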

How the data were processed

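RNA of MC38 cells was profiled in 16 libraries: m6A immunoprecipitation and its inputs (n = 3 each per genotype), and YTHDF2 RIP and its inputs (n = 2 each). The authors deposited raw read counts per gene for the 6 m6A inputs, with no normalization, and the table held 0 columns of other samples. They also deposited 1 peak list per group, whose score, at most 0.003 in all lists, was read as a p-value from its values. The submitters' processing notes list HISAT2, HOMER, ChIPseeker and the mm10 build without saying what each did. No source used here states the counter, its strand setting, the peak caller or how libraries were combined. Peaks therefore have no replicate error. Library-level RIP and m6A signal was not used here.

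The members and gene lists were chosen with earlier results of these data known. A shared base had to be exonic and on the same strand, and 1 was enough. Peak centres were placed on 1 transcript a gene, that with the longest coding sequence in GENCODE M21, where all host gene IDs were found when the version was left off. Motifs were searched on the sense strand, in windows of 100 bases.

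The gene test was edgeR's quasi-likelihood F test (edgeR 4.0.16, TMM scaling, filterByExpr, no covariate, Benjamini-Hochberg adjustment over all tested genes at 0.05) in R 4.3.3. DESeq2 1.42.0, other size factors, no filter, a replicate block and each library left out were alternatives. CPM use TMM-scaled library sizes, and SE was taken as the absolute log2 fold change over the root of F. At these depths 3 counts, the level a count of 0 still allows, correspond to 0.0582 to 0.0652 CPM. Whether replicates came from separate cultures is not in the labels, and p-values reflect only how far these libraries spread, which may be technical. The closest library pair differed by more than sampling noise (chi-square per degree of freedom 9.01). The code was tested on simulated data.

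Named genes were the 12 with most members, the 8 members with the lowest score and the 8 farthest from m6A, the 8 largest called rises and falls with separated groups and at least 1 CPM, Ythdf2 and Cx3cl1, and in each list up to 4 called hosts and the 2 with most members. Symbols of predicted genes were passed over. 1 gene that met the rule is not reported here.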

Additional observations from a re-analysis of the deposited data

How the results depend on the processing

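The number of members stayed within 1.5 times the reported 11626 under all overlap, strand, score and repeated-row alternatives. Their share of RIP peaks in methylated genes (58.9%) moved to 55.0% with m6A blocks extended by 100 bases, 63.8% where 50% of the shorter peak had to be shared, 61.2% against the WT list alone and 54.3% for RIP peaks with a score of at most 1e-05. The 3′ UTR share (42.4%) was 45.9% on the transcript of greatest total length. The density of pentamers in members over RIP peaks on m6A (0.854) was 0.792 in the central 100 bases.

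Calls among hosts (223 higher, 46 lower) were 27 and 9 without a filter on low counts, 886 and 241 by DESeq2, and 19 and 9 with a replicate block. With single libraries left out they ran from 0 to 1401 higher and from 0 to 553 lower. In the labels, replicates of the 2 genotypes share only a number. The correlations of same-numbered libraries were 0.0494, 0.115 and 0.0502, and 25 of the 28 hosts called with the block were among the 269. WT replicate 1 and Ythdf2-KO replicate 1 differed least of all pairs across genotypes (chi-square per degree of freedom 29.9, against 47.5 to 102). Whether same-numbered libraries share a batch was not tested. The median log2 fold changes of the 4 classes stayed above 0 under every alternative run.

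Of the 62 named genes 22 were called. All 22 lost the call without Ythdf2-KO replicate 2 or 3, or WT replicate 2 or 3, 17 without WT replicate 1, 15 with the replicate block, 15 without the filter and 1 with DESeq2's size factors (Ifnar1, adjusted p = 0.0520 in edgeR). Reversals of sign were limited to genes that did not pass the test and whose reported values were near 0. Without the filter Lnpep became 0.0024 and Zbtb20 0.0012. With single libraries left out, log2 fold changes ran from -0.065 to 0.00049 for Birc6, -0.039 to 0.021 for Dst, -0.11 to 0.0083 for Eif3a, -0.0027 to 0.030 for Eif5b, -0.055 to 0.027 for Lnpep, -0.036 to 0.14 for Ythdf2 and -0.18 to 0.13 for Zbtb20. The causes were not tested. Peak lists give no depth per library, so depth limits on single peaks are unknown.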
